A study of Homo sapiens with 2 samples.

Results

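The genes described here belong to families named for nucleosome remodelling and for adding or removing methyl groups on histones, though single members act elsewhere. They were chosen by symbol, as names that begin with SMARCA to SMARCE or with ARID and a digit, and as the CHD, KMT, KDM and SETD genes, with names that contain a hyphen left out. This gave 53 of the 10145 genes with a row in either table, of which 51 of 9159 were listed in the ZC3H7B library and 45 of 8204 in the ZC3H7A library. They comprised 14 remodeller ATPases, 9 further subunits of SWI/SNF complexes, 5 other ARID genes, 13 methyltransferases of the KMT and SETD series, 11 demethylases and the pseudogene SMARCE1P5. SETD5-AS1 was the only name left out for its hyphen.

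ZC3H7B and ZC3H7A are related CCCH zinc finger proteins that bind RNA. Each was expressed with a Flag/HA tag in HEK293 cells, a human embryonic kidney line, from a construct induced with 1 µg/mL doxycycline for 24 h, and contacts with RNA were recorded by PAR-CLIP, in which 4-thiouridine in the RNA (100 µM for 16 h) crosslinks to bound protein under light of 365 nm. Both samples carried an overexpressed tagged protein, so neither is a control, and there was 1 library for each protein. Without replicates no test was made between the proteins, and each difference compares these libraries only. The intervals given are exact 95% ones and cover counting error alone. A crosslinked 4-thiouridine is read as a T-to-C conversion, and overlapping reads are grouped into clusters, whose reads are summed by gene.

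Nucleosome remodellers are ATPases that slide, evict or exchange histones, and most act within complexes such as SWI/SNF, ISWI and NuRD. KMT and SETD proteins carry a SET domain, a fold that in many of them transfers methyl groups to lysine, and KDM proteins remove such groups. Roles were given here by symbol, whatever the activity of the single protein. The marks they set and erase are known for separating active promoters, enhancers and transcribed gene bodies from silent chromatin. Many of these proteins are very large, so their messenger RNAs have long coding sequences. Transcript lengths were not used here, so reads are not compared between genes as levels.

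The ZC3H7B library held 2409465 gene reads in 99805 clusters, with 1212989 distinct reads among them, and the ZC3H7A library held 3779662 gene reads in 51808 clusters, with 300342 distinct reads. A distinct read was thus counted 1.99 times on average in the ZC3H7B library and 12.6 times in the ZC3H7A library. Copies made by PCR are counted again as reads, which makes every interval on reads too narrow. Each tagged protein's own transcript had more reads in its own library. ZC3H7B had 3768 reads there against 1362 in the ZC3H7A library, and ZC3H7A had 158 reads in the ZC3H7B library against 82704 in its own. Of 5 genes taken as markers of HEK293 cells, LIN28B and VIM had clusters in both libraries, and no cluster was listed for PAX2, NEFM and TUBB or for 7 markers of liver, blood and muscle.

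The chromatin genes held 17023 reads in the ZC3H7B library, or 0.707% of gene reads (0.696 to 0.717%), and 16573 reads in the ZC3H7A library, or 0.438% (0.432 to 0.445%). By distinct reads they held 0.781% (0.765 to 0.797%) and 0.481% (0.457 to 0.507%), and by clusters 0.936% (0.877 to 0.998%) and 0.685% (0.616 to 0.760%). The share was therefore higher in the ZC3H7B library by each of these counts. A gene of the set had a median of 180 reads in 13 clusters in the ZC3H7B library and of 232 reads in 6 clusters in the ZC3H7A library. The median of all listed genes was 82 reads in 7 clusters and 135.5 reads in 4 clusters. Both libraries listed 43 of the 53 genes (81.1%), against 71.1% of all genes.

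**Figure D1:**
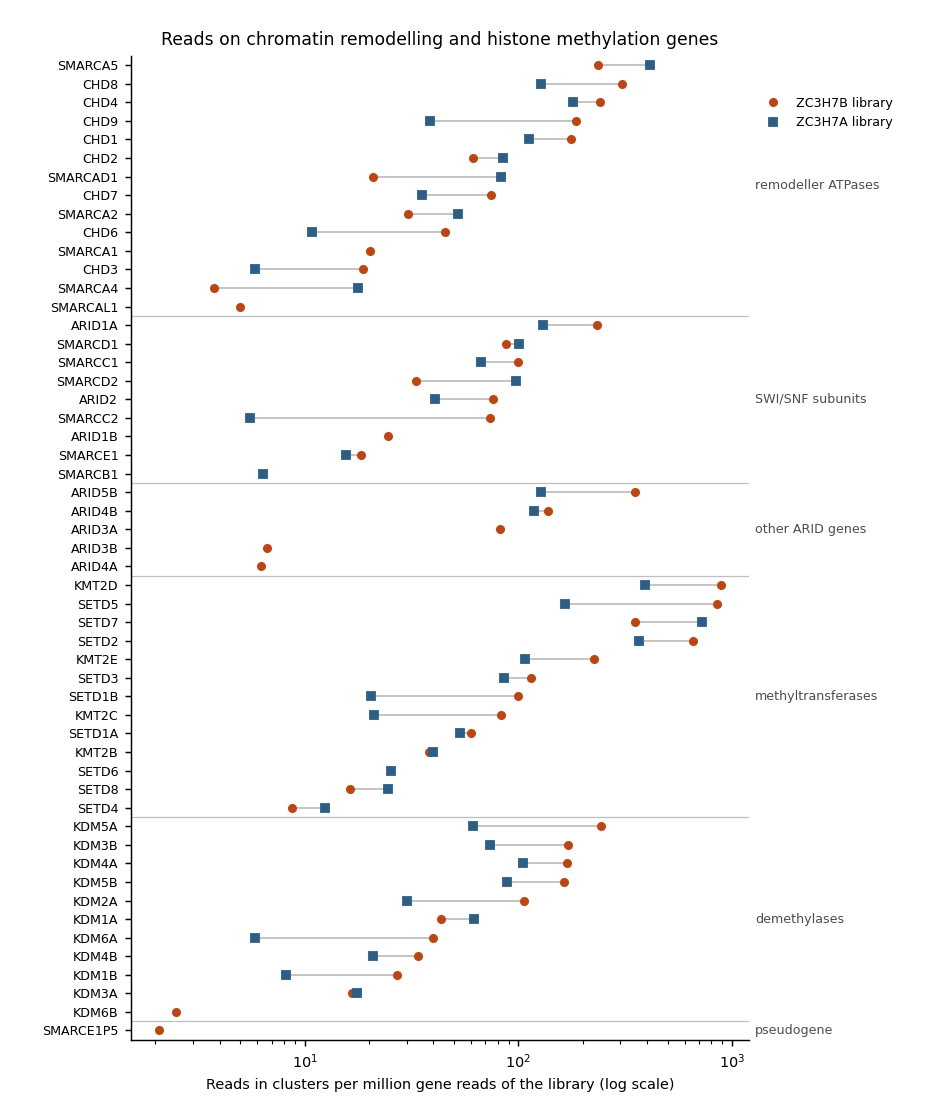
Reads in clusters scaled to the gene reads of the library (RPM), on a log scale, for the 53 genes by role, with circles for the ZC3H7B library and squares for the ZC3H7A library. A single symbol marks a gene listed in 1 table only, such as ARID3A, and grey lines join the values of genes listed in both.

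For the 43 genes listed in both tables, all with at least 20 reads summed, the log2 ratio of reads, ZC3H7B over ZC3H7A, was set so that the median of all 7168 genes compared was 0. The median of the chromatin genes was 0.55, with 30 above 0 and 13 below. The whole interval lay beyond 2-fold towards the ZC3H7B library for 10 of them (23.3%), against 18.2% of all genes, and towards the ZC3H7A library for 4 (9.3%), against 18.0% of all genes. The remaining 29 did neither. Counted in distinct reads the median was 0.85, with 6 genes higher in the ZC3H7B library and none in the ZC3H7A library, against 7.28% and 10.1% of all genes. By mean reads per cluster the median was 0.08 and the calls were 1 and 2, against 6.18% and 4.65%. The calls per cluster took the numbers of clusters as exact, so they cover the counting error of reads only. By clusters alone the median was 0.66 and no member was called, against 0.321% and 0.223%. The median thus lay nearer to 0 for reads per cluster than for clusters.

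**Figure D2:**
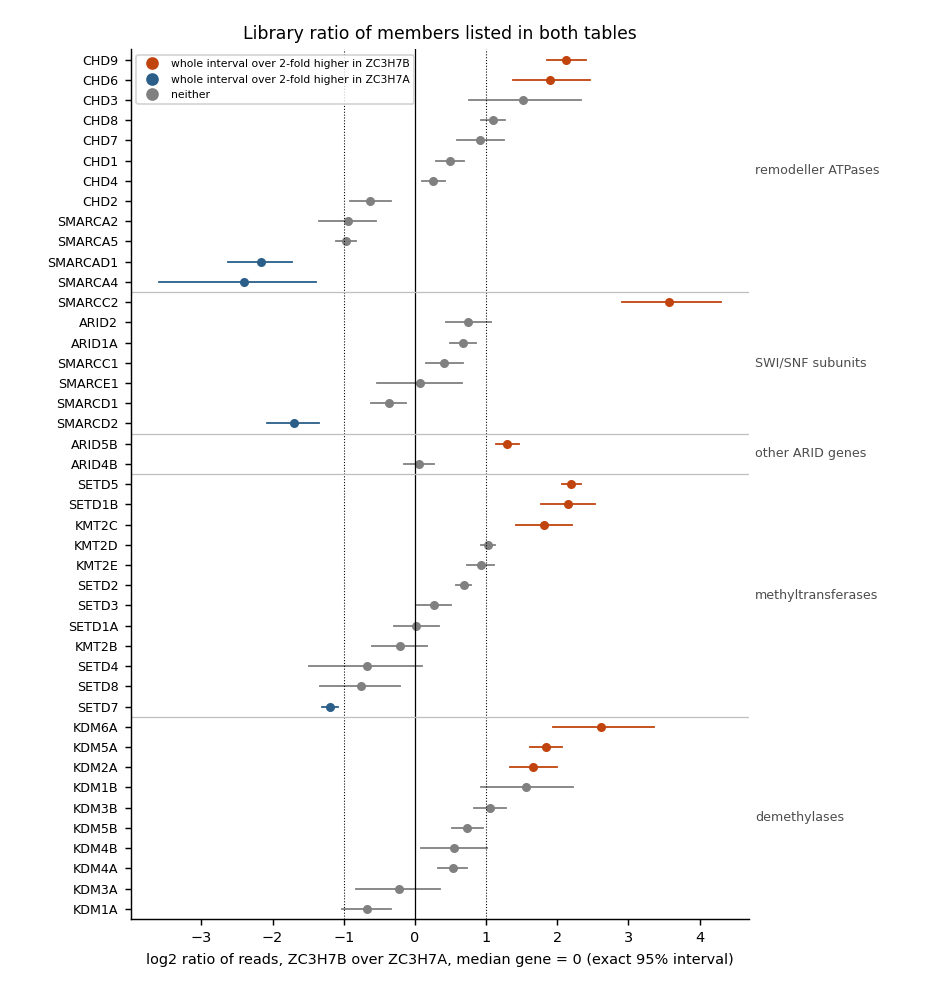
Log2 ratio of reads, ZC3H7B over ZC3H7A, with exact 95% intervals for the 43 genes listed in both tables, by role, scaled so that the median of all genes is 0. Dotted lines mark 2-fold, and coloured points are the 10 genes with the whole interval beyond it towards ZC3H7B and the 4 towards ZC3H7A.

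Of the 12 remodeller ATPases listed in both tables, 2 were higher in the ZC3H7B library and 2 in the ZC3H7A library, close to the 18.2% and 18.0% of all genes. Their median log2 ratio was 0.38. CHD9, a chromodomain helicase, had 449 reads in 40 clusters in the ZC3H7B library and 145 reads in 6 clusters in the ZC3H7A library, a log2 ratio of 2.12 (1.85 to 2.40). CHD6 had 109 reads in 11 clusters against 41 reads in 1 cluster, a ratio of 1.90 (1.37 to 2.46). That single ZC3H7A cluster was made of 2 distinct reads, and by distinct reads CHD6 was not called (2.75, 0.83 to 5.83). CHD8, a regulator of beta-catenin targets, had 735 reads in 45 clusters against 482 reads in 11. Its ratio of 1.10 (0.93 to 1.27) was not called by reads and was called by distinct reads, at 1.53 (1.03 to 2.07).

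Both ATPases called higher in the ZC3H7A library belonged to the SMARCA series. SMARCAD1, a remodeller that maintains silent chromatin through replication, had 50 reads in the ZC3H7B library and 315 in the ZC3H7A library, a log2 ratio of -2.16 (-2.62 to -1.73). SMARCA4, the BRG1 ATPase of SWI/SNF, had 9 reads in 1 cluster against 67 reads in 1 cluster, a ratio of -2.40 (-3.59 to -1.39), with 9 distinct reads in each library. By distinct reads the ratios were -1.75 (-2.55 to -0.92) for SMARCAD1 and -2.06 (-3.56 to -0.55) for SMARCA4, and neither was called. SMARCA5, the ISWI ATPase SNF2H, had 566 reads in 33 clusters in the ZC3H7B library and 1564 reads in 20 clusters in the ZC3H7A library. Its ratio of -0.97 (-1.11 to -0.83) was not called. SMARCA2, the BRM ATPase, stood at -0.95 (-1.35 to -0.55), with 73 reads against 198.

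CHD4, the main ATPase of NuRD, was near the median of all genes, with 582 reads in 28 clusters against 684 reads in 13 and a log2 ratio of 0.26 (0.10 to 0.42). Its paralogue CHD3 had 45 reads against 22. CHD1, which reads methylated histone H3 at active genes, had 423 reads in each library, a ratio of 0.49 (0.29 to 0.69), and CHD2 stood at -0.62 (-0.92 to -0.34). CHD7, the gene mutated in CHARGE syndrome, had 180 reads against 134. SMARCA1, the ISWI paralogue of SMARCA5, had 49 reads in 6 clusters and SMARCAL1, an annealing helicase at stalled replication forks, 12 reads in 2 clusters, both listed for ZC3H7B only. Paralogues of these families share sequence, so reads can be uncertain between copies.

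Among the SWI/SNF subunits without ATPase activity, 1 of 7 was higher in each library, beside 18.2% and 18.0% of all genes. SMARCC2, a core scaffold, had 177 reads in 8 clusters in the ZC3H7B library and 21 reads in 1 cluster in the ZC3H7A library. Its log2 ratio of 3.57 (2.91 to 4.30) was the highest of the 43 genes, and by distinct reads, 79 against 2, it stood at 3.25 (1.35 to 6.32). Its paralogue SMARCC1 lay lower, with 239 reads against 253 and a ratio of 0.41 (0.15 to 0.67). SMARCD2 lay the other way at -1.70 (-2.07 to -1.35), with 80 reads in 4 clusters against 367 in 7, but by distinct reads it was not called (-1.39, -2.09 to -0.67). SMARCD1, with 210 reads against 382, stood at -0.37 (-0.62 to -0.12). SMARCE1 had 44 reads against 59, and the pseudogene SMARCE1P5 had 5 reads in 1 cluster, listed for ZC3H7B only.

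The ARID subunits that direct SWI/SNF to DNA lay towards the ZC3H7B library without being called. ARID1A had 562 reads in 34 clusters against 495 reads in 12, a log2 ratio of 0.68 (0.50 to 0.85). ARID2, the subunit of the PBAF form, had 184 reads in 20 clusters against 154 reads in 4, a ratio of 0.75 (0.43 to 1.07). ARID1B was listed for ZC3H7B only, with 59 reads in 8 clusters, and SMARCB1, a core subunit lost in rhabdoid tumours, for ZC3H7A only, with 24 reads in 1 cluster of 2 distinct reads. The reads of a gene without a row are unknown here, and are not taken as 0.

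The other ARID genes had most of their reads from ARID5B and ARID4B. ARID5B, a partner of the demethylase PHF2, had 843 reads in 37 clusters in the ZC3H7B library and 482 reads in 10 clusters in the ZC3H7A library, a log2 ratio of 1.30 (1.14 to 1.46). By distinct reads it stood at 1.43 (0.97 to 1.93) and was not called. ARID4B, a subunit of the SIN3 corepressor, stood at 0.06 (-0.15 to 0.26), with 331 reads against 448. ARID3A, a DNA-binding transcription factor, had 198 reads in 13 clusters in the ZC3H7B library, the most of the 8 genes listed there only, and all 13 lay in the 3' UTR. ARID3B and ARID4A, also listed for ZC3H7B only, had 16 and 15 reads.

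The methyltransferases included the gene of the set with the most reads in each library, which is not a level per length. Of the 12 compared, 3 were higher in the ZC3H7B library and 1 in the ZC3H7A library, beside 18.2% and 18.0% of all genes. Their median log2 ratio was 0.48. KMT2D, a very large enzyme that methylates histone H3 at enhancers, had 2135 reads in 68 clusters against 1478 reads in 36, a ratio of 1.02 (0.93 to 1.12) that was not called. SETD5, a relative with a divergent SET domain, had 2048 reads in 63 clusters against 629 reads in 18. Its ratio was 2.20 (2.07 to 2.33), and 1.93 (1.58 to 2.31) by distinct reads. SETD1B, a promoter methyltransferase, stood at 2.14 (1.77 to 2.53), with 242 reads in 17 clusters against 77 in 4. Its paralogue SETD1A had 145 reads against 201 and stood at 0.02 (-0.30 to 0.34). KMT2C, the enhancer paralogue of KMT2D, stood at 1.81 (1.43 to 2.20), with 199 reads against 80. Neither SETD1B nor KMT2C was called by distinct reads.

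SETD7, which methylates histone H3 and many other proteins, was the 1 methyltransferase called higher in the ZC3H7A library, and SETD8, SETD4 and KMT2B also lay below 0. SETD7 had 849 reads in 43 clusters in the ZC3H7B library and 2738 reads in 33 clusters in the ZC3H7A library, where no other gene of the set had as many. The log2 ratio was -1.20 (-1.31 to -1.08), and -0.84 (-1.10 to -0.58) by distinct reads, which was not called. SETD2, the methyltransferase of transcribed gene bodies, had 1584 reads in 54 clusters against 1387 in 24, a ratio of 0.68 (0.58 to 0.79). KMT2E had 548 reads against 407, SETD3, which methylates actin, 278 against 325, and KMT2B, a promoter enzyme, 92 against 150. SETD8, which methylates histone H4 (now named KMT5A), had 39 against 93 and SETD4 21 against 47. SETD6 was listed for ZC3H7A only, with 96 reads in 2 clusters of the 3' UTR.

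The demethylases had 3 of 10 compared genes higher in the ZC3H7B library and none in the ZC3H7A library, beside 18.2% and 18.0% of all genes. Their median log2 ratio was 0.89. KDM5A, which removes methyl groups of active promoters, had 591 reads in 42 clusters against 232 reads in 7, a ratio of 1.84 (1.62 to 2.07). KDM2A, a CpG-binding demethylase, had 256 reads in 15 clusters against 114 in 4, a ratio of 1.66 (1.34 to 1.99). Both were also called by distinct reads, at 1.95 (1.33 to 2.64) and 2.01 (1.05 to 3.17). KDM6A, which removes the Polycomb mark, had 96 reads in 10 clusters against 22 reads in 1 cluster, a ratio of 2.62 (1.94 to 3.36) that was not called by distinct reads (1.91, 0.28 to 4.24).

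The remaining demethylases were not called. KDM4A, with 407 reads against 396, stood at 0.53 (0.33 to 0.74), and KDM5B, with 394 against 333, at 0.74 (0.52 to 0.95). KDM3B had 410 reads against 279, a log2 ratio of 1.05 (0.83 to 1.27), and its paralogue KDM3A 40 against 66. KDM1B, at 1.56 (0.92 to 2.23), had 65 reads against 31 reads of a single cluster. KDM1A, the LSD1 enzyme that removes methyl groups by oxidation, lay on the ZC3H7A side at -0.68 (-1.02 to -0.34), with 104 reads against 234. KDM4B had 82 reads against 79, and KDM6B was listed for ZC3H7B only, with 6 reads.

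**Figure D3:**
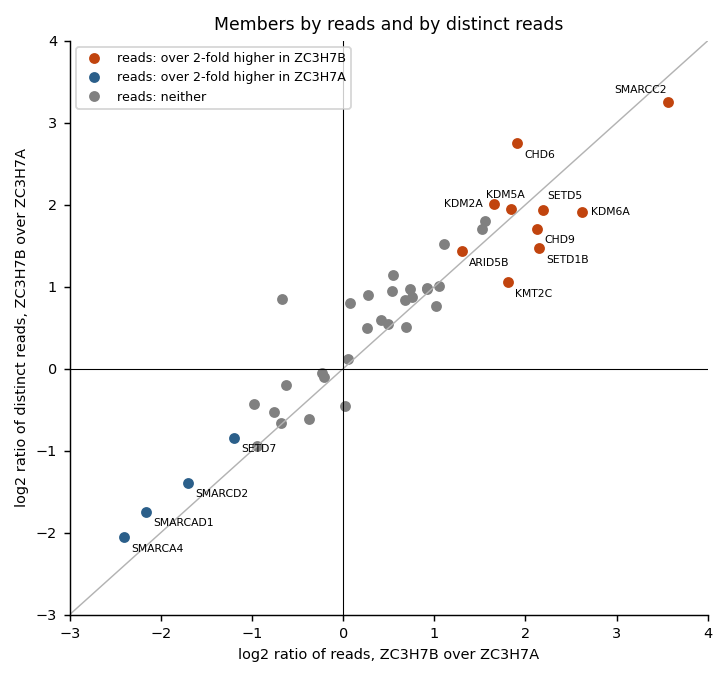
Log2 ratio of reads (x axis) against log2 ratio of distinct reads (y axis), both ZC3H7B over ZC3H7A, for the 43 genes listed in both tables, coloured by the call on reads, with the diagonal in grey. Of the 30 genes above 0 by reads, 29 were also above 0 by distinct reads.

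Most clusters on the chromatin genes lay in coding sequence in both libraries. It took 525 of their 934 clusters (56.2%, 53.0 to 59.4%) for ZC3H7B and 214 of 355 (60.3%, 55.0 to 65.4%) for ZC3H7A, and these intervals overlap. On the other genes it took 29.3% (29.0 to 29.6%) and 42.6% (42.1 to 43.0%). The 3' UTR held 306 clusters (32.8%, 29.8 to 35.9%) in the ZC3H7B library and 102 (28.7%, 24.1 to 33.7%) in the ZC3H7A library, against 56.0% and 39.9% on the other genes. Clusters of 1 gene are not independent of each other, and the set was not tested against the other genes. Coding length sets how much coding sequence a gene offers, and its part in these shares was not tested.

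Counted by gene, the same order was seen. Among genes with at least 3 clusters, coding sequence held over 50% of the clusters for 24 of 45 chromatin genes (53.3%) in the ZC3H7B library and 21 of 33 (63.6%) in the ZC3H7A library. Among all such genes it did so for 22.5% and 39.7%. The median coding share of the chromatin genes was 53.3% and 66.7%, and that of all genes 25% and 42.9%.

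**Figure D4:**
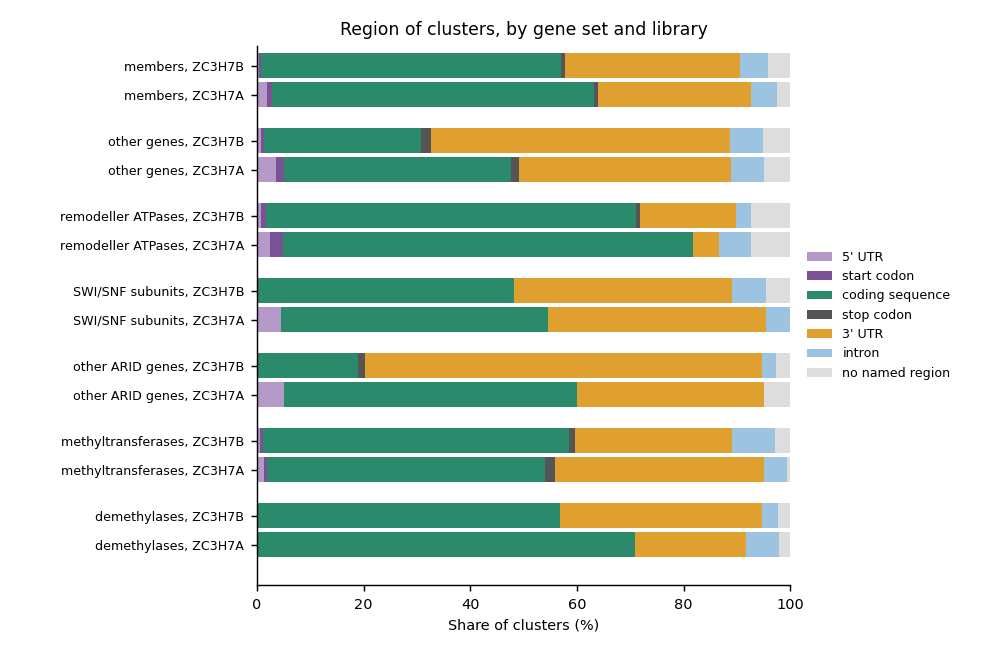
Share of clusters by transcript region, as stacked bars from 0 to 100%, for the chromatin genes, all other genes and each role, with the ZC3H7B bar above the ZC3H7A bar. Coding sequence takes 56.2% and 60.3% of the clusters of the chromatin genes and 29.3% and 42.6% of those of other genes.

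The roles differed in where their clusters lay. Of the clusters of remodeller ATPases, 170 of 245 (69.4%, 63.2 to 75.1%) were coding in the ZC3H7B library and 63 of 82 (76.8%, 66.2 to 85.4%) in the ZC3H7A library. Their 3' UTRs held 44 of 245 (18.0%, 13.4 to 23.3%) and 4 of 82 (4.88%, 1.34 to 12.0%). Demethylases had 95 of 167 coding clusters (56.9%, 49.0 to 64.5%) and 34 of 48 (70.8%, 55.9 to 83.0%), and methyltransferases 193 of 337 (57.3%, 51.8 to 62.6%) and 84 of 161 (52.2%, 44.2 to 60.1%). For SWI/SNF subunits these counts were 53 of 110 and 22 of 44. The other ARID genes had only 14 of 74 coding clusters (18.9%, 10.7 to 29.7%) in the ZC3H7B library, with 55 of 74 in the 3' UTR, and 11 of 20 in the ZC3H7A library. These counts cover 5 genes for ZC3H7B and 2 for ZC3H7A, so they are not all from the same genes. On ARID4B, listed in both, 6 of 21 clusters were coding for ZC3H7B and 5 of 10 for ZC3H7A. On ARID5B, also listed in both, 7 of 37 and 6 of 10 were. Both thus had the lower coding share in the ZC3H7B library, with overlapping intervals. Of the 55 clusters in the 3' UTR for ZC3H7B, ARID5B gave 27, and ARID4B and ARID3A gave 13 each. ARID3A was listed for ZC3H7B only. Among methyltransferases, SETD7 gave 35 of the 99 clusters in the 3' UTR for ZC3H7B and 29 of 63 for ZC3H7A. Shares by role can therefore rest largely on single genes.

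Single genes covered nearly the whole range from coding to 3' UTR. SETD2 had 50 of 54 coding clusters in the ZC3H7B library and 22 of 24 in the ZC3H7A library, and none in the 3' UTR of either. CHD4 had 26 of 28 and 11 of 13 coding clusters, and CHD8 38 of 45 and 11 of 11. KMT2B had 7 of 8 and 7 of 7. At the other end, SETD7 had 35 of 43 clusters in the 3' UTR in the ZC3H7B library and 29 of 33 in the ZC3H7A library, and KDM4B had 8 of 8 and 2 of 2 there. SMARCC1, with 13 of 15 and 6 of 9, and SETD1B, with 12 of 17 and 3 of 4, were also mostly 3' UTR. KMT2D was intermediate, with 45 of 68 and 22 of 36 clusters coding and 17 of 68 and 13 of 36 in the 3' UTR.

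Within genes the coding share was lower in the ZC3H7B library for some and higher for others. Of the 33 chromatin genes with at least 3 clusters in each, 18 (54.5%) had a lower coding share in the ZC3H7B library, against 67.8% of 4517 such genes, and 15 (45.5%) a higher one, against 22.8%. The ZC3H7B share minus the ZC3H7A share had a median of -1.47 percentage points, beside -10.0 points for all genes. Over the 12 with at least 10 clusters in each library it was 1.87 points, with 4 lower and 8 higher, beside -9.65 points over all 1529 such genes. How many of the 1529 were lower or higher is not given here, so the counts 4 and 8 have no like share beside them. The ZC3H7B library had the higher 3' UTR share on 19 of 33 (57.6%), against 69.2% of all genes, and the lower one on 9 (27.3%), against 18.2%. For none of the 33 did the exact intervals of the coding shares fail to overlap. Among all genes this happened for 0.797% towards a lower share and 0.0221% towards a higher one. With shares this low, none of 33 does not set the chromatin genes apart.

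Among genes with at least 10 clusters in each library, the coding share was lower in the ZC3H7B library by the most on ARID5B and ARID4B. ARID5B had 7 of 37 coding clusters in the ZC3H7B library and 6 of 10 in the ZC3H7A library, a difference of -41.1 points, with 27 and 4 clusters in the 3' UTR. ARID4B had 6 of 21 and 5 of 10, CHD8 the counts given above (-15.6 points), and SMARCA5 23 of 33 and 17 of 20 (-15.3 points). With fewer clusters in the ZC3H7A library, KDM5A had 21 of 42 and 6 of 7, and SETD3 had 8 of 16 and 4 of 5. In the other direction, SETD5 had 33 of 63 coding clusters in the ZC3H7B library and 6 of 18 in the ZC3H7A library, a difference of 19.0 points, and CHD4 differed by 8.24 points. The exact interval for the coding share of ARID5B ran from 7.96 to 35.2% in the ZC3H7B library and from 26.2 to 87.8% in the ZC3H7A library, so these overlap.

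**Figure D5:**
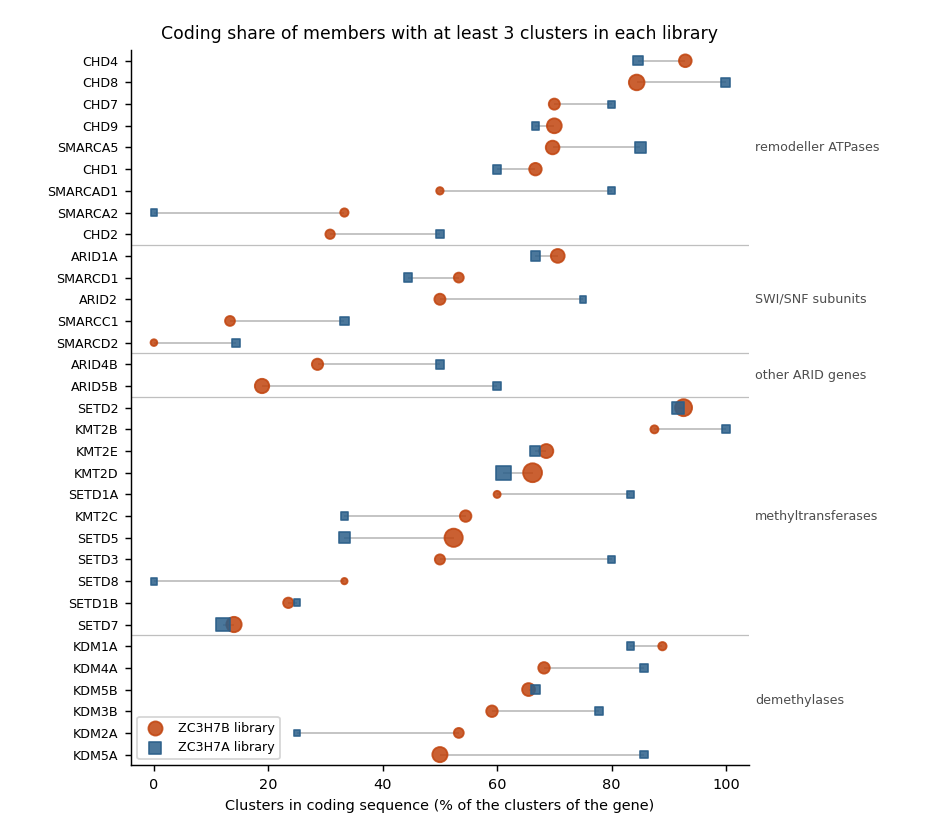
Share of a gene's clusters in coding sequence for the 33 genes with at least 3 clusters in each library, by role, with circles for the ZC3H7B library, squares for the ZC3H7A library and area growing with the number of clusters. SETD2 and CHD4 lie at the right in both libraries, SETD7 at the left, and ARID5B differs most among genes with at least 10 clusters in each.

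T-to-C conversion in the clusters was high on these genes. The median over genes of the authors' median fraction of converted reads was 0.95 in the ZC3H7B library and 1.00 in the ZC3H7A library, beside 0.94 and 1.00 for all genes. A fraction of 1.00 was reached by 16 of 51 genes (31.4%) and 36 of 45 (80.0%), against 36.8% and 73.9% of all genes. With few distinct reads 1.00 is easier to reach, and the median chromatin gene had 107 distinct reads in the ZC3H7B library and 21 in the ZC3H7A library. SMARCA4 had the lowest fractions of the set, 0.78 and 0.36, each from a single cluster. Among genes with at least 10 distinct reads, ARID3B (0.81), KMT2B (0.83) and SMARCA1 (0.83) were lowest in the ZC3H7B library, and SMARCA2 (0.66), KDM5A (0.97) and, level with each other, SETD1A and SMARCAD1 (0.98) in the ZC3H7A library. SMARCA2 had a fraction of 1.00 in the ZC3H7B library. No source used here gives the thresholds of the cluster caller, and a threshold on conversion would raise these values.

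Genes outside the set were read from lists of related complexes and enzymes, chosen by known membership. Some hold partners of the chromatin genes, while others, such as INO80 and SRCAP, are remodellers or enzymes apart from them. Their ratios and calls are by reads only. Values by distinct reads, which kept 5 of the 14 calls on the chromatin genes, are not given for these lists. The calls stand beside 18.2% of all genes higher in the ZC3H7B library and 18.0% in the ZC3H7A library. Partners of COMPASS, the complex around the KMT2 and SETD1 enzymes, had a median log2 ratio of 1.20 over 9 genes, with 4 higher in the ZC3H7B library and 1 in the ZC3H7A library. WDR82, a subunit of the SETD1 complexes, stood at 1.45 (1.34 to 1.56), with 2009 reads against 1036, and RBBP5, a core subunit, at 1.20 (1.00 to 1.40). Genes of the INO80 and SRCAP remodellers lay the other way, with a median of -1.50 over 9 genes, 5 of them higher in the ZC3H7A library and none in the ZC3H7B library. INO80D had 1139 reads against 3272, a ratio of -1.03 (-1.13 to -0.93) that was not called, and SRCAP stood at 0.72 (0.55 to 0.89). NuRD partners had a median of -0.17 over 8 genes, with 1 higher in the ZC3H7A library. This was RBBP7, a histone chaperone, at -1.26 (-1.37 to -1.15).

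The other lists had medians nearer to that of the chromatin genes, at 0.70 over 12 further SWI/SNF subunits, 0.53 over 6 ISWI partners, 0.67 over 13 Polycomb genes and 0.50 over 14 other methyltransferases. For demethylases outside the KDM series and their partners it was -0.13 over 6 genes. Genes higher in the ZC3H7B library and in the ZC3H7A library numbered 3 and 1 for SWI/SNF, 1 and 0 for ISWI, 3 and 1 for Polycomb, 3 and 2 for the methyltransferases and 0 and 1 for the demethylases. NSD1, a methyltransferase of gene bodies, stood at 1.49 (1.39 to 1.59), with 2322 reads against 1165. BMI1, a Polycomb subunit, stood at -1.58 (-1.69 to -1.46), with 757 against 3175. Polycomb genes had most clusters in the 3' UTR, 174 of 233 in the ZC3H7B library and 68 of 113 in the ZC3H7A library. The other methyltransferases had 209 of 398 and 100 of 168 clusters in coding sequence. SRCAP, with 29 of 34 and 14 of 16 coding clusters, and INO80D, with 70 of 72 and 46 of 47 in the 3' UTR, stood at opposite ends within 1 list.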

How the data were processed

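PAR-CLIP tables of HEK293 cells were used, 1 library each for Flag/HA-tagged ZC3H7B and ZC3H7A, grouped by sample title. The tools named are STAR 2.5.2a, Bowtie and cutadapt, with hg19 as the build and no roles given, per the submitters' processing notes. The cluster caller is not given in the sources used here. Per the file headers, the deposited counts are, per gene, clusters, reads and distinct reads summed over clusters, and clusters per region, with start and stop codon clusters among them. The deposited T-to-C fraction is the share of converted reads, given as a median over a gene's clusters. Deposited score columns (sums and medians over clusters, among them a conversion specificity) were not compared. The exon column was taken as coding sequence.

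Rows naming a class of repeats or small RNAs were left out (407 of 9566 rows with 1.51% of reads in the ZC3H7B table, 282 of 8486 with 1.57% in the ZC3H7A table). Log2 ratios of ZC3H7B over ZC3H7A used genes in both tables with at least 20 reads summed, scaled to the median gene, with exact (Clopper-Pearson) 95% intervals. A gene was called where the whole interval lay beyond 2-fold. Shares per gene needed at least 3 clusters in each library. Symbols of all 53 genes matched a RefSeq table of GRCh38.p14, 52 of them by current symbol. Of the 66 coding symbols there that fit the rule, 14 had no row for either library. Whether these had no cluster, were left out or stood under another name cannot be told here.

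The members, lists and tests were chosen with earlier results of these data known. Named with full values were the 3 genes with the most reads per role. So were the 5 ratios at either end for genes of 100 reads or more in sum. Also named were genes of 1 table, the extremes of coding share and T-to-C fraction, and up to 2 genes of each list outside the set. Alternatives were other counts (distinct reads, reads per cluster, clusters), scalings, minima and denominators. The steps were tested on simulated data. Those reads were drawn without PCR copies, so the tests do not show how the intervals on reads behave with such copies. Software was scipy 1.17.1, numpy 2.4.6, matplotlib 3.10.9 and pandas 2.3.3 under Python 3.11.15. R 4.3.3 with edgeR 4.0.16 gave TMM factors only and made no test.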

Additional observations from a re-analysis of the deposited data

Results flagged for a closer look

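SETD5-AS1, an antisense gene at SETD5 that the choice of members left out for its hyphen, had clusters in both libraries. It held 21 reads in 2 clusters in the ZC3H7B library and 28 reads in 2 clusters in the ZC3H7A library, above the limit of 3 counts. The labels do not state whether the counting used strand. Whether reads of SETD5 or of its antisense partner were counted for the other gene therefore cannot be checked here. SETD5 itself held 2048 and 629 reads.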

How the results depend on the processing

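Counts of genes higher in the ZC3H7B library were 10 by reads, 6 by distinct reads, 1 by reads averaged per cluster and 0 by cluster number. Those higher in the ZC3H7A library were 4, 0, 2 and 0. Under total reads, TMM factors, median-of-ratios scaling, other minima, missing genes at 0, or, chosen after seeing the data, without genes under 3 clusters, they ranged from 7 to 13 and from 3 to 6. The last setting left 33 genes to compare, and missing genes at 0 added genes of 1 table. Shares of all genes under these settings are not given here, so this range describes the chromatin genes only. Of the 14 called genes, 5 kept the call with distinct reads and 9 did not. All 5 were among the 10 called higher in the ZC3H7B library, where 515 of 1306 calls over all genes were kept. None of the 4 called higher in the ZC3H7A library kept the call, against 702 of 1293 kept over all genes. By mean reads per cluster CHD6 stood at -0.58 and SMARCD2 at 0.077, each on the other side of 0. The median ratio stayed above 0 under all 8 alternatives (0.08 to 0.85). As a mean over genes with at least 3 clusters, the coding share in the ZC3H7B library was 49.6% and the 3' UTR share 38.2%. The median difference in coding share was 1.87 points with at least 10 clusters in each library, so its sign is not settled, and -14.3 points with at least 1. The members' share of the library was 0.781% and 0.936% in the ZC3H7B library and 0.481% and 0.685% in the ZC3H7A library by distinct reads and by clusters. No paired analysis was possible because each protein had 1 library. In the ZC3H7A library 9 of the 45 genes rest on 1 cluster, which limits every ratio made with them.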

Other observations

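Clusters outside coding sequence and 3' UTR were a minority in both libraries. The 5' UTR held 4 clusters on 3 genes in the ZC3H7B library (0.428%, 0.117 to 1.09%) and 7 clusters on 6 genes in the ZC3H7A library (1.97%, 0.796 to 4.02%), against 0.775% and 3.62% on other genes. SETD5 had 2 and 1 of them and SMARCD2 0 and 2. Start codon clusters were found on 4 genes in the ZC3H7B library and 3 in the ZC3H7A library, and KMT2D, CHD2 and CHD7 had 1 in each library. Stop codon clusters were found on 7 and 3 genes, with 1 in each library on SETD2 and on SETD1A.

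Introns held 48 of 934 clusters (5.14%, 3.81 to 6.76%) in the ZC3H7B library and 17 of 355 (4.79%, 2.81 to 7.56%) in the ZC3H7A library. On other genes they held 6.14% and 6.19%. The intron clusters of the chromatin genes were spread over 17 genes in the ZC3H7B library and 10 in the ZC3H7A library. SETD5 had 11 and 2 of these clusters, KMT2E 6 and 3, ARID1A 5 and 2, and KDM5B 4 and 2. CHD2 had 7 of 13 and 2 of 6 clusters in no named region, more than any other gene of the set in the ZC3H7B library.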
